A study of Ovis aries with 3 samples.

Results

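This account follows 2 genes, somatostatin (SST, ENSOARG00020000243) and tyrosine hydroxylase (TH, ENSOARG00020007423), among the 26478 genes counted in single cells of whole sheep embryos. There were 3 libraries, 1 per group: an embryonic day 19 Hulunbuir short-tailed sheep library (E19 HSTS), an embryonic day 19 Hu sheep library (E19 HS) and an embryonic day 16 Hu sheep library (E16 HS). The breeding animals of HSTS carried a point mutation of the T gene (brachyury) on both copies, those of HS carried the wild-type allele, and no embryo received a treatment. For E16 HS the label speaks of a single embryo while the study's methods speak of several, so whether embryos were pooled is not settled here. The members were chosen by 2 measured values, the high rank of SST among the genes of a neuronal cluster and the difference in TH between libraries. Those values are therefore given as a description and tested nowhere. Where 3 values stand together without names, the first is that of E19 HSTS, the next that of E19 HS and the last that of E16 HS.

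Somatostatin is a secreted peptide that inhibits hormone release and neuronal firing. It is cut from a longer precursor and is known from interneurons, sensory and autonomic neurons, and endocrine cells of the pancreatic islet and gut. Tyrosine hydroxylase converts tyrosine to L-DOPA, the rate-limiting step of dopamine, noradrenaline and adrenaline synthesis, and is known from midbrain, sympathetic and adrenal medullary cells. Its cofactor tetrahydrobiopterin is made by GCH1, PTS and SPR and is recycled by PCBD1 and QDPR. DDC, DBH and PNMT carry out the later steps. In the RefSeq gene order for sheep (assembly ARS-UI_Ramb_v3.0), TH is followed by INS and then IGF2.

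Each library held between 9618 and 11329 cells with 200 to 6000 genes, 1000 to 30000 UMIs (unique molecular identifiers, each counting 1 captured transcript) and at most 10% mitochondrial UMIs. Their summed depth ran from 88733467 to 113213654 UMIs, and the median cell held 6900 to 9046. With 1 library per group, breed, stage, embryo and library cannot be told apart. No test between groups was possible, and intervals are 95% intervals for counting error only. Between 38 and 42 cell barcodes were shared by any pair of libraries, at most 0.369% of the smaller one.

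Both genes were rare, and they differed in how their transcripts were spread over cells. SST had 700 UMIs in 51 cells of E19 HSTS, 1454 UMIs in 76 cells of E19 HS, and 1053 UMIs spread over 105 cells of E16 HS. TH had 314 UMIs in 286 cells of E19 HSTS, 3 UMIs in 3 cells of E19 HS, and 160 UMIs spread over 150 cells of E16 HS. The mean SST count of a cell with SST was thus raised by a few cells rich in it, whereas most cells with TH had 1 captured UMI of it.

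As UMIs per 1000000 UMIs (CPM), SST stood at 7.03 (6.52 to 7.57), 16.4 (15.6 to 17.3) and 9.30 (8.75 to 9.88). The share of cells with SST was 0.530% (Clopper-Pearson interval, 0.395 to 0.697), 0.715% (0.564 to 0.894) and 0.927% (0.759 to 1.12). The order of the 3 libraries by CPM thus differed from their order by share of cells, and neighbouring shares had overlapping intervals. TH stood at 3.15 CPM (2.81 to 3.52), 0.0338 CPM (0.00697 to 0.0988) and 1.41 CPM (1.20 to 1.65), with shares of 2.97% (2.64 to 3.33), 0.0282% (0.00582 to 0.0825) and 1.32% (1.12 to 1.55). For TH the 3 intervals were apart on both scales.

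The highest SST counts in a single cell were 260, 308 and 131 UMIs. Those single cells held 37.1%, 21.2% and 12.4% of their library's SST, and the 10 highest cells held 84.6%, 76.7% and 62.8%. Cells with exactly 1 SST UMI made up 51.0%, 42.1% and 36.2% of the cells with SST, and those with 5 or more numbered 17, 30 and 40. A difference in SST CPM between libraries thus rested on a few cells, and the intervals on summed UMIs do not include the spread between cells. The highest TH count in a cell was 3 UMIs, and 90.9% of the E19 HSTS cells with TH and 93.3% of those in E16 HS had exactly 1. Only 1 cell held both genes, in E19 HSTS.

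**Figure D1:**
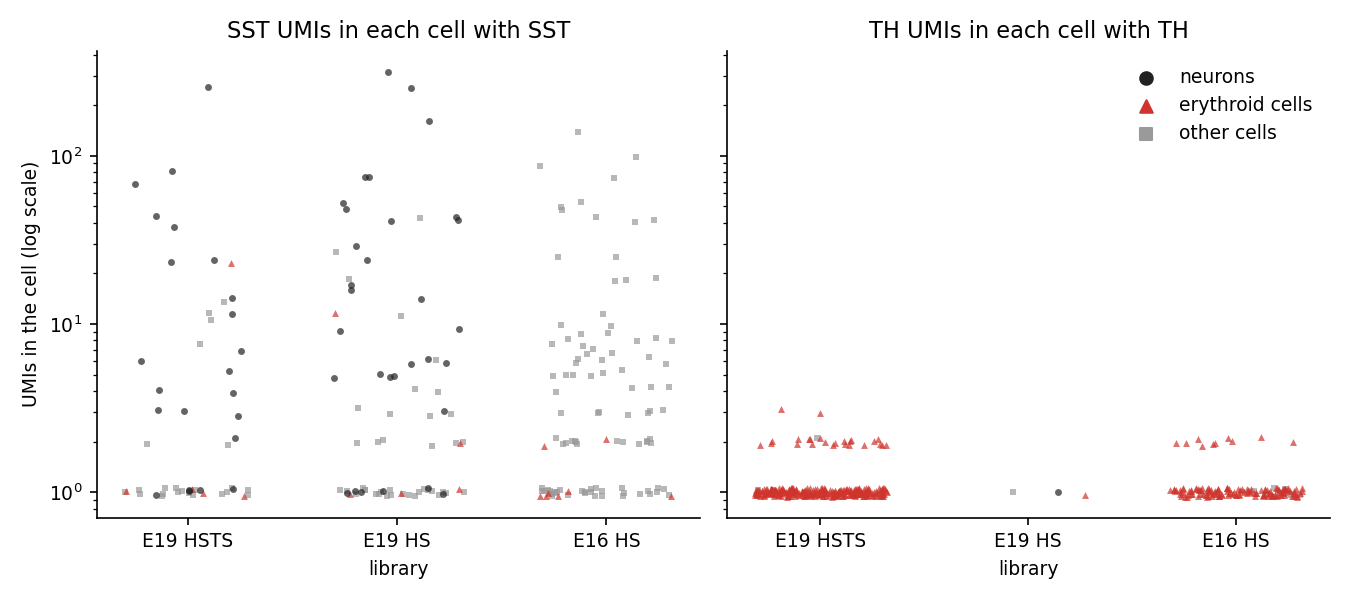
UMIs of SST (left) and TH (right) in each cell that had the gene, on a log axis with slight jitter, by library, with circles for neurons, triangles for erythroid cells that were not also called neurons and squares for all other cells. SST reached 308 UMIs in a neuron of E19 HS and 131 UMIs in an E16 HS cell that was not called a neuron. TH stayed at 1 to 3 UMIs and lay mostly in erythroid cells.

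The cells were sorted into 4 groups that may overlap: neurons (at least 2 of NEFM, NEFL, STMN2 and INA), epithelium (EPCAM), erythroid cells (at least 5 UMIs of AHSP and 2 of ALAS2) and neural crest (SOX10). Erythroid cells were 25.5%, 12.3% and 16.4% of the kept cells, after a dissociation that included a red cell lysis step. All of them had BLVRB, a red cell enzyme, but so did 42.6%, 37.0% and 49.9% of the other cells. SLC4A1, the anion exchanger of the red cell membrane, was in 24.9% to 36.6% of erythroid cells and at most 0.600% of others. For neurons the markers outside the rule were thin and differed by stage. DCX, a microtubule protein of young neurons, was found in 12.4% of the 411 neurons of E19 HSTS and 7.09% of the 550 of E19 HS, but in 0.789% of the 380 of E16 HS. At E16 only 21 of those 380 cells fell in the neuronal cluster described below, and 164 fell in a cluster led by PAX6, SCUBE2 and SOX2. At E19 the neuronal cluster held 188 of the 411 neurons of E19 HSTS and 219 of the 550 of E19 HS. The cluster led by PAX6 held 151 and 249 of them. The word neurons thus names the rule only, at E16 most of all, and the E19 values of neurons are values of this mixed group.

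At E19 most SST was in neurons. They held 607 of the 700 SST UMIs of E19 HSTS (86.7%, 84.0 to 89.1) and 1278 of the 1454 of E19 HS (87.9%, 86.1 to 89.5). In E16 HS the 380 cells of the neuron rule had no SST UMI, which allows up to 0.789% of cells with a UMI and a level of up to 0.667 CPM. This limits cells with a UMI, not cells that express the gene at a low level. Against that limit, taken as 3 UMIs over the group, the SST level of the cells of the rule was 253-fold higher in E19 HSTS and 435-fold higher in E19 HS. The exact intervals of these ratios began at 205 and 354. Only 21 of the 380 E16 cells fell in the neuronal cluster, so unlike cells are compared here. In that cluster E16 HS had 1 SST UMI in 124 cells, at 1.01 CPM (0.0257 to 5.65).

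SST marked a small part of the E19 neurons, and its frequency was close in both breeds. It was found in 23 of 411 neurons of E19 HSTS (5.60%, 3.58 to 8.28) and in 31 of 550 of E19 HS (5.64%, 3.86 to 7.91). After every cell was thinned to 3000 UMIs the shares were 4.42% (2.59 to 6.98) and 4.43% (2.83 to 6.58). The level of SST summed over the neurons was 169 CPM (156 to 183) in E19 HSTS and 290 CPM (275 to 307) in E19 HS, a ratio of 0.581 (0.526 to 0.640). Of the cells with SST, 12 of 23 in E19 HSTS and 24 of 31 in E19 HS had 5 or more UMIs.

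**Figure D2:**
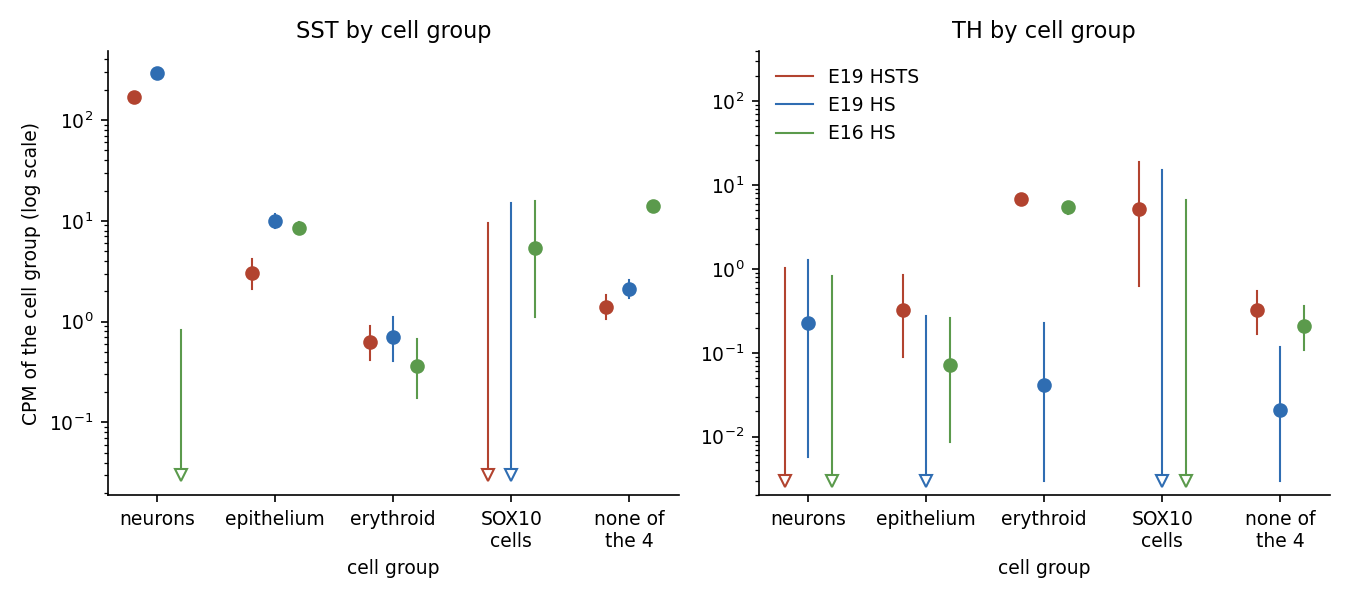
Level of SST (left) and TH (right) in CPM of the cell group, on a log axis, for 4 rule-based cell groups and for cells in none of them, by library, with 95% Poisson intervals cut off at the lower end of the axis and open triangles for a count of 0. SST was highest in the neurons of both E19 libraries and had no UMI in those of E16 HS, and TH was at 6.76 and 5.41 CPM in the erythroid cells of E19 HSTS and E16 HS but at 0.0411 CPM in those of E19 HS.

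At E16 SST lay outside the neurons. In E16 HS, 805 of the 1053 SST UMIs (76.4%, 73.8 to 79.0) were in cells of none of the 4 groups and 235 (22.3%, 19.8 to 25) in epithelium, where 32 of 2365 cells had SST (1.35%, 0.927 to 1.90). Epithelium held 37 SST UMIs in 4 of 1076 cells in E19 HSTS and 136 UMIs in 11 of 1416 cells in E19 HS. The SST level of epithelium, 3.03 CPM (2.13 to 4.17), 10.0 CPM (8.40 to 11.8) and 8.5 CPM (7.44 to 9.65), had overlapping intervals in both HS libraries.

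SST was low in cells that should lack it. Among erythroid cells, with median depths of 14531 to 18210 UMIs, it was found in 5 of 2448, 5 of 1305 and 8 of 1857 cells, or 0.204%, 0.383% and 0.431%. The highest of these cells had 24, 12 and 2 UMIs. Endothelial cells were called by 2 or more of KDR, PLVAP, CDH5, PECAM1, TEK and EGFL7, only among cells of none of the 4 groups. They had SST in 0 of 185, 0 of 251 and 1 of 126 cells, where a count of 0 allows up to 1.62% and 1.20% of cells with a UMI. The shares in E19 neurons, at median depths of 7542 and 6912 UMIs, were far above these levels. The shares in cells of none of the groups, 0.382% in E19 HSTS and 0.403% in E19 HS, were not. SOX10 cells numbered 33, 24 and 46 and held 0, 0 and 3 SST UMIs.

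An unsupervised grouping of all kept cells into 18 clusters gave the same 2 places. In the cluster led by NEFM, SCG3, INA, TAGLN3, GAP43 and SST, where SST ranked 6 among named genes by enrichment, E19 HSTS had 634 SST UMIs in 26 of 336 cells and E19 HS 1296 UMIs in 32 of 369 cells. E16 HS had 124 cells there, with 1 SST UMI. In the cluster led by DCDC2, SLPI, CDH16, SLC12A1 and CALB1, whose leading genes also include the nephric factor LHX1 and the podocyte phosphatase PTPRO, E16 HS had 952 SST UMIs in 70 of 500 cells, or 90.4% of its SST. The cells of that cluster had 10 SST UMIs in 3 of 491 cells in E19 HSTS and 64 UMIs in 11 of 585 cells in E19 HS. The share of cells with SST in it was therefore 14.0% (11.1 to 17.4) at E16 against 0.611% and 1.88% (0.942 to 3.34) at E19. The clusters were made with SST among the genes, so their SST levels are a description.

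A finer grouping into 34 clusters split those nephric cells. A cluster led by SLPI, C1QA, PTPRO, PTPRQ, ENPEP and MAGI2 held 577 SST UMIs in 42 of its 139 E16 HS cells (30.2%, 22.7 to 38.6), 13 UMIs in 4 of 72 cells in E19 HS and 8 UMIs in 1 of 34 cells in E19 HSTS. A cluster led by CALB1, SLC12A1, NRK and LHX1 held 377 SST UMIs in 29 of its 389 E16 HS cells (7.46%, 5.05 to 10.5), 53 in 8 of 472 cells in E19 HS and 2 in 2 of 409 cells in E19 HSTS. In both, the SST level was highest in E16 HS, at 388 CPM (357 to 421) and 78.3 CPM (70.6 to 86.7).

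The genes found together with SST differed between these places. In the 18 E19 HSTS neurons with 2 or more SST UMIs, SCG3, a granin of secretory granules, was found in 18, TAGLN3 in 18, and GAP43, a growth cone protein, in 15. In the 25 such neurons of E19 HS the numbers were 20, 24 and 20. The median depth was 8341 UMIs with SST and 7561 without in E19 HSTS, and 5582 with and 7004 without in E19 HS. Among neurons without SST, SCG3 was found in 43.3% and 39.5%, TAGLN3 in 56.2% and 52.6%, and GAP43 in 19.6% and 18.1%. With every cell thinned to 3000 UMIs, the 8 named genes with the widest gap in both E19 libraries were SCG3, TAGLN3, SELENOM, GAP43, PPP1R14A, CCSER2, NEFM and CIB2. For SCG3 that gap was 61.2 percentage points in E19 HSTS and 70.0 in E19 HS. Neurons with SST thus had more of these neuronal transcripts than the other cells of the rule, a group that also holds cells with few neuronal genes.

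Factors of neuron subtypes marked some of the SST neurons. ISL1, a LIM homeodomain factor of sensory and motor neurons, was found in 7 of 18 in E19 HSTS and 8 of 25 in E19 HS, against 7.22% and 6.17% of neurons without SST. CHRNA3, a nicotinic receptor subunit of ganglion neurons, was found in 11 of each, against 19.1% and 15.2%. NEUROD1, a proneural factor, differed between libraries, with 9 of 18 in E19 HSTS (26.0% to 74.0%) and 1 of 25 in E19 HS. NEUROD1 was also among the genes more than 2-fold higher in all cells of E19 HSTS, at 51 UMIs against 20. It was the 1 of 10 neuron subtype factors compared that was 2-fold apart at E19, where 1.53% of all 12439 genes with 50 or more UMIs over both libraries were 2-fold higher and 2.28% lower. At E16, NEUROD4 (13 against 200 UMIs in E19 HS) was lower and GATA3 higher among 7 compared, where 6.96% of 12580 genes were higher and 6.38% lower. ADCYAP1, which encodes the neuropeptide PACAP, was found in 3 of 18 and 6 of 25, against 2.58% and 3.66%.

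At E16, 67 cells had 2 or more SST UMIs, none of them called neurons. TCF21, a mesodermal factor of kidney and other organs, was found in 56 of them (83.6%, 72.5 to 91.5) against 12% of cells without SST. DLK1 was found in 58, PTPRO in 37, CLIC5 in 38, WT1, a factor of kidney and gonad, in 32 and LHX1 in 26, against 1.65% to 8.18% of cells without SST. PTPRO, CLIC5 and WT1 are known from podocytes, the filtering cells of the glomerulus. INS was found in 16 of the 67 (23.9%, 14.3 to 35.9) and in 0.295% of the rest. EPCAM was found in 22 of them. C1QA, a complement subunit known from macrophages, was found in 46, while its partners C1QB and C1QC were found in 0 of the 67. In E19 HS the 19 cells outside the neurons with 2 or more SST UMIs had TCF21 in 10, CLIC5 in 4 and PTPRO, WT1 and C1QA in 3 each, and the 7 such cells of E19 HSTS had TCF21 and PTPRO in 2 each.

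**Figure D3:**
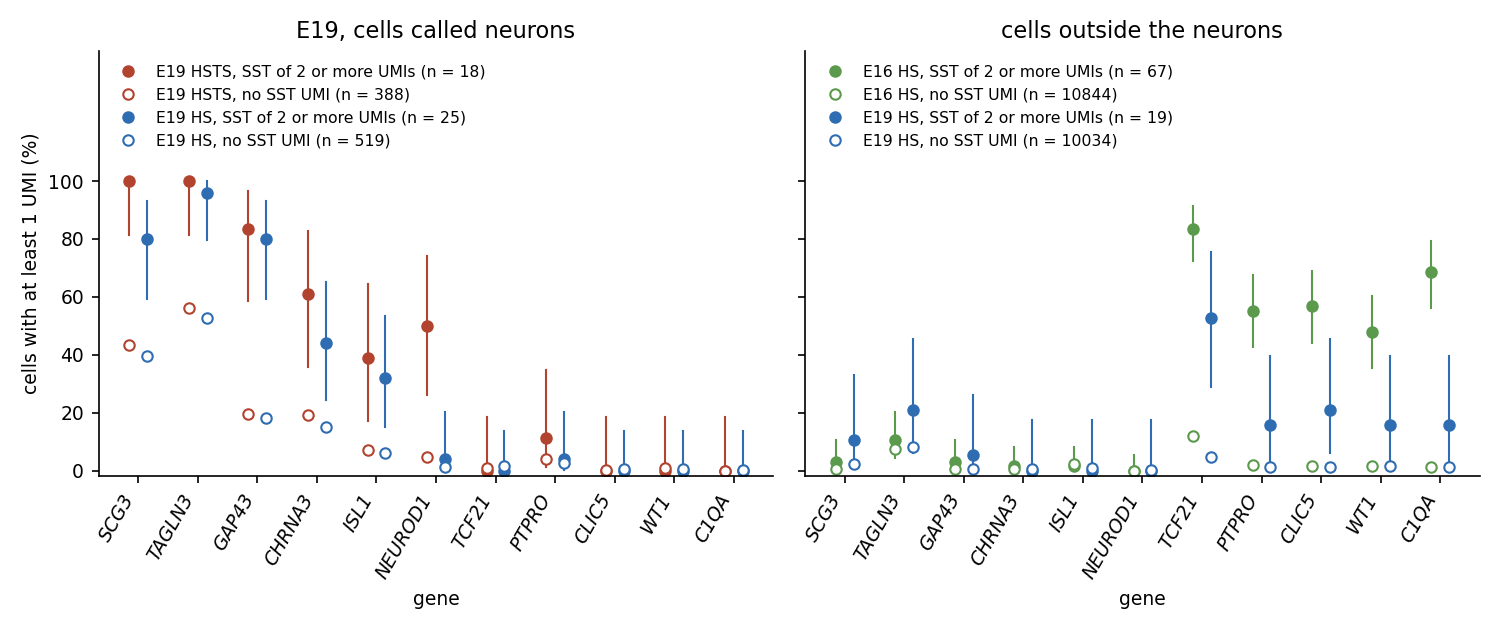
Share of cells with at least 1 UMI of each gene, in percent, among cells with 2 or more SST UMIs (filled, with 95% Clopper-Pearson intervals) and among cells with none (open), for E19 neurons (left) and for cells outside the neurons in E16 HS and E19 HS (right). SCG3, TAGLN3 and GAP43 lay at 80.0% or above in the E19 neurons with SST, and TCF21 was at 83.6% and C1QA at 68.7% in the E16 HS cells with SST.

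A group of cells was then set by genes other than SST, with 3 or more of 7 podocyte genes (NPHS1, WT1, SYNPO, TCF21, PTPRO, CLIC5 and MAGI2) and outside the neurons. The list was chosen after the genes of the SST cells had been seen, so its overlap with SST is no independent evidence. It gave 43, 81 and 159 cells, with median depths of 10305, 7340 and 10206 UMIs. NPHS1, the slit diaphragm protein nephrin, was found in 20.9%, 11.1% and 30.2% of them and in at most 0.0627% of other cells. SST was found in 2 of 43 cells (4.65%, 0.568 to 15.8), 4 of 81 (4.94%, 1.36 to 12.2) and 49 of 159 (30.8%, 23.7 to 38.6). Thinned to 3000 UMIs the numbers with SST were 1 of 37, 3 of 78 and 33 of 157 (2.70%, 3.85% and 21%). The SST level in these cells was 52.8, 21.5 and 413 CPM, and in E16 HS they held 75.9% of the library's SST. Of the 25 SST UMIs in E19 HSTS, 24 were in a single cell that was also called erythroid, so the level of 52.8 CPM rests on that cell.

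Among E16 HS cells of this group, the 43 with 2 or more SST UMIs had DLK1 in 39, LHX1 in 18 and EMX2 in 14, and the 110 without SST had them in 61, 22 and 8. EMX2 is a factor of the developing urogenital system. The median depth was 12777 UMIs with SST and 9434 without. WT1 was found in 27 of the 43 and 60 of the 110, PTPRO in 34 and 94, and MAGI2 in 24 and 66. NPHS1 was found in 9 of the 43 (20.9%) and 36 of the 110 (32.7%).

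The rest of the somatostatin system gave a partial picture. The receptor genes SSTR1, SSTR3 and SSTR5 had 0 UMIs in the kept cells of all 3 libraries, and SSTR2 and SSTR4 were not each listed once by symbol and were not analysed here. CORT, the paralogue whose product cortistatin binds the same receptors, had 123, 192 and 216 UMIs. Of the enzymes that cut and trim the precursor, PCSK1 had 21, 29 and 7 UMIs and PCSK2 3, 8 and 3, whereas CPE had 710, 1004 and 951. Between E19 HSTS and E19 HS, 10 genes of this list had enough UMIs (50 over both libraries), none was 2-fold higher and 1 was 2-fold lower, SST itself. Erythroid cells were 25.5% of E19 HSTS and 12.3% of E19 HS, and without them the SST ratio was 0.547, no longer 2-fold apart. None of the 9 genes other than SST was 2-fold apart, where 1.53% of all genes were higher and 2.28% lower. Between E16 HS and E19 HS, 9 genes were compared, none was 2-fold higher and 1 was lower, SCG3, with 156 UMIs against 1383 (a ratio of 0.0884, 0.0744 to 0.104), where 6.96% of all genes were higher and 6.38% lower.

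Over all kept cells SST in E19 HSTS stood to that in E19 HS at 0.429 (0.391 to 0.470), or 2.33-fold lower in E19 HSTS (0.547 without erythroid cells), and that of E16 HS to E19 HS was 0.568 (0.524 to 0.615). Without the single highest SST cell of each library the ratios were 0.342 and 0.631. The E16 ratio joins opposite differences, since outside the neurons SST was 4.64-fold higher in E16 HS (3.95 to 5.48) and in neurons it had no UMI there. Outside the neurons the E19 HSTS to E19 HS ratio was 0.464 (0.357 to 0.600).

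Among islet and gut endocrine genes the hormones had few UMIs and some of the transcription factors had many. PAX6, which is also a gene of eye and neural tube, had 1658, 2193 and 911 UMIs, HHEX 312, 199 and 136, and NKX6-1 166, 201 and 47. GCG, which encodes glucagon, had 42, 6 and 0 UMIs, and GAST, which encodes gastrin, 42, 14 and 16. Of these, 22 of the 42 GCG UMIs and 32 of the 42 GAST UMIs of E19 HSTS lay in erythroid cells, which had none of either in E19 HS. PYY, a gut peptide, had 16, 46 and 8 UMIs and INS 41, 51 and 72. Of 7 islet and gut genes compared at E19, GAST was 2-fold higher in E19 HSTS and PYY lower (all genes, 1.53% higher and 2.28% lower). Of 5 compared at E16, NKX6-1, PAX6 and PYY were lower than in E19 HS and none higher (all genes, 6.38% lower and 6.96% higher). Among other neuropeptide genes, GRP had 234 UMIs in E19 HSTS against 533 in E19 HS (a ratio of 0.391, 0.334 to 0.457), ADCYAP1 60 against 132 (0.405, 0.293 to 0.554) and POMC 75 against 128 (0.522, 0.387 to 0.700). Of 7 neuropeptide genes compared at E19, GRP and ADCYAP1 were 2-fold lower in E19 HSTS and none higher, against the same shares of all genes. At E16, again among 7 and against the E16 shares above, GAL (439 UMIs) and PENK (241 UMIs) were 2.87-fold and 4.84-fold higher than in E19 HS, and ADCYAP1 (77 UMIs) was lower.

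The 8 genes whose level followed SST most closely over 41 sums of cells (1 per cluster and library with 50 or more cells) were CCER2, ELAVL2, HPCA, NEUROD4, APLP1, GNG3, PPP1R17 and CHRNA3. Their Pearson correlations on log2(CPM + 1) ran from 0.75 to 0.70 among 8989 genes. The points share 3 libraries and their depth, so this is a description.

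TH lay in erythroid cells. In E19 HSTS they held 301 of the 314 TH UMIs (95.9%, 93.0 to 97.8) in 274 of 2448 cells (11.2%, 9.97 to 12.5), at 6.76 CPM (6.02 to 7.57). In E16 HS they held 148 of 160 UMIs (92.5%, 87.3 to 96.1) in 138 of 1857 cells (7.43%, 6.28 to 8.72), at 5.41 CPM (4.57 to 6.36). In E19 HS 1 of 1305 erythroid cells had 1 TH UMI (0.0766%, 0.00194 to 0.426), at 0.0411 CPM (0.00104 to 0.229). Erythroid cells of E19 HSTS and E16 HS thus had TH levels in a ratio of 1.25 (1.02 to 1.53), and those of E19 HS stood apart from both.

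The erythroid cells of E19 HS were not shallower. Their median depth was 18210 UMIs, against 18071 in E19 HSTS and 14531 in E16 HS. Thinned to 3000 UMIs, TH was found in 47 of 2447 cells in E19 HSTS (1.92%, 1.41 to 2.55), 0 of 1305 in E19 HS and 31 of 1840 in E16 HS (1.68%, 1.15 to 2.38). The TH ratio in erythroid cells was 165 (29.3 to 6524) for E19 HSTS to E19 HS and 132 (23.3 to 5236) for E16 HS to E19 HS, both resting on the 1 UMI of E19 HS. Over all kept cells the ratios were 93.3 (31.6 to 455) and 41.8 (14.0 to 205).

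The same held within erythroid clusters shared by both E19 libraries. In a cluster with HEMGN, RHAG, HBM and ALAS2 among its leading genes, TH had 153 UMIs in 141 of 1279 cells in E19 HSTS and 0 UMIs in 718 cells of E19 HS. In another led by MT2, MT1C, HEMGN and SLC39A8, TH had 149 UMIs in 134 of 1254 cells in E19 HSTS and 2 UMIs in 686 cells of E19 HS. Of the erythroid cells of E16 HS, 96.7% fell in a cluster led by SRGN, MYL10 and FERMT3, with 149 TH UMIs in 139 of 1977 cells. That cluster also held 104 cells of E19 HSTS, with 3 TH UMIs, and 17 of E19 HS, with 0.

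Outside the erythroid cells few TH UMIs were found, and no group of midbrain, sympathetic or adrenal medullary cells was set apart here. Neurons of the rule had 0, 1 and 0 TH UMIs in 411, 550 and 380 cells. In E19 HSTS a count of 0 allows up to 0.730% of neurons with a TH UMI. Their median depth was 7542 UMIs, against 18071 in erythroid cells, so low TH expression in neurons was not detectable at this depth. Endothelial cells, called as above among cells of none of the 4 groups, had 0 UMIs in 185, 251 and 126 cells. SOX10 cells had 2, 0 and 0 TH UMIs, and the 2 UMIs were in a cell that was also called erythroid. The cells with TH outside the erythroid group numbered 12, 2 and 12, and 10, 1 and 10 of these had at least 1 UMI of AHSP, the chaperone of alpha globin. None of them had DBH or HAND2, which are genes of noradrenergic cells.

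**Figure D4:**
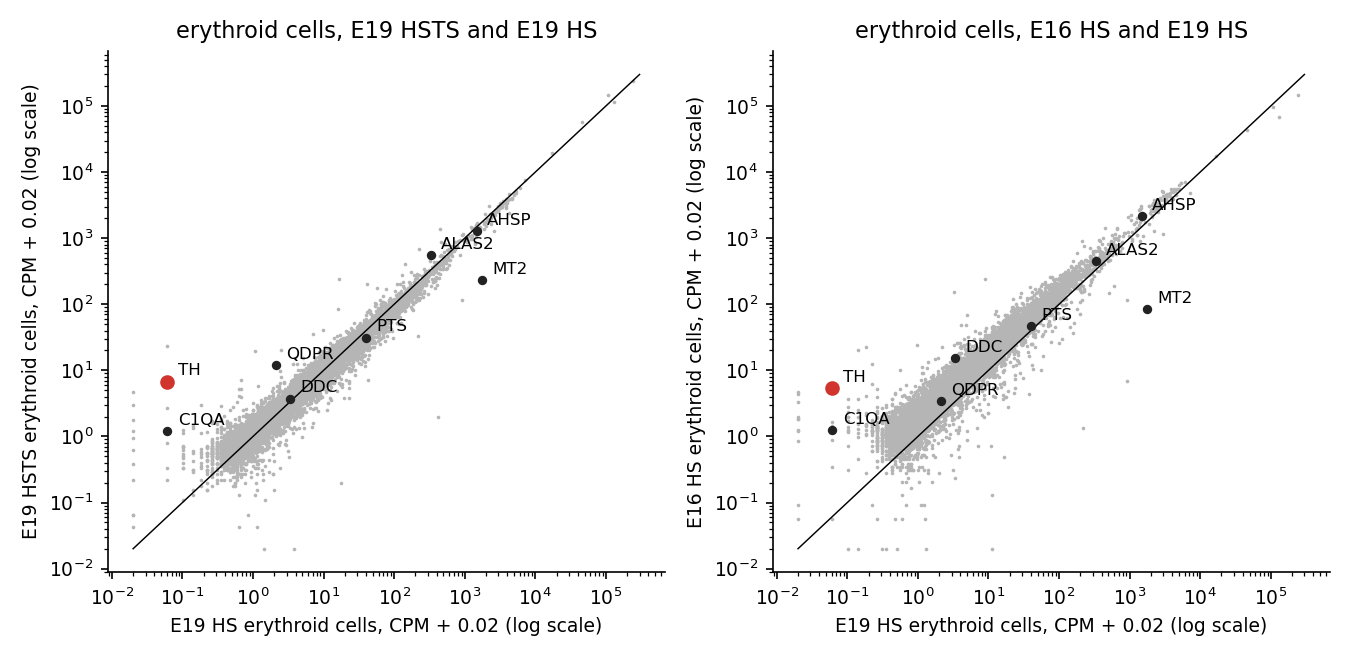
Level of each gene in erythroid cells of E19 HS (horizontal) and of E19 HSTS or E16 HS (vertical), in CPM plus 0.02 on log axes, with 1 grey point per gene with 50 or more UMIs and a line at equal levels. TH lay far above the line in both panels, at 6.76 and 5.41 CPM against 0.0411 CPM, while AHSP and ALAS2 lay much nearer to it.

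Among the 8500 genes with 50 or more UMIs in the erythroid cells of the 3 libraries, 5 were over 10-fold higher in both other libraries than in E19 HS, and TH, chosen for this pattern, had the highest smaller ratio. The other named ones were C1QA (52, 1 and 34 UMIs) and ITIH4 (79, 0 and 49 UMIs). Red cell genes differed between the libraries by less than TH did. AHSP stood at 1275, 1475 and 2180 CPM, ALAS2, the first enzyme of haem synthesis in red cells, at 553, 329 and 454 CPM, and GATA1, the erythroid master factor, at 77.8, 64.9 and 114 CPM. SLC4A1 stood at 28.1, 16.3 and 22.4 CPM, and HBM, an alpha-like globin, was highest in E19 HS, at 32.6, 79.8 and 39.9 CPM. Metallothionein genes, which encode metal-binding proteins, were highest in E19 HS, where TH was lowest. MT2 stood at 230, 1775 and 84.0 CPM and MT1C at 114, 929 and 6.91 CPM. Both were lower in E16 HS than in E19 HSTS, as TH was, so their order was not the reverse of that of TH. The part of the metallothionein genes in the TH difference was not tested.

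Within the erythroid cells of E19 HSTS the TH level was higher in cells richer in AHSP. When the cells of E19 HSTS were split into 4 equal parts by the AHSP share of their UMIs, TH stood at 4.91 (3.69 to 6.41), 6.0 (4.64 to 7.63), 7.89 (6.34 to 9.70) and 8.20 (6.60 to 10.1) CPM from the lowest to the highest part. In E16 HS it stood at 4.81 (3.37 to 6.66), 4.71 (3.22 to 6.65), 5.26 (3.66 to 7.31) and 7.0 (5.10 to 9.36) CPM, with overlapping intervals. Split by depth it showed no such order, running from 6.56 to 7.09 CPM in E19 HSTS and from 4.27 to 6.94 CPM in E16 HS. The single TH UMI of E19 HS lay in the lowest AHSP part.

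**Figure D5:**
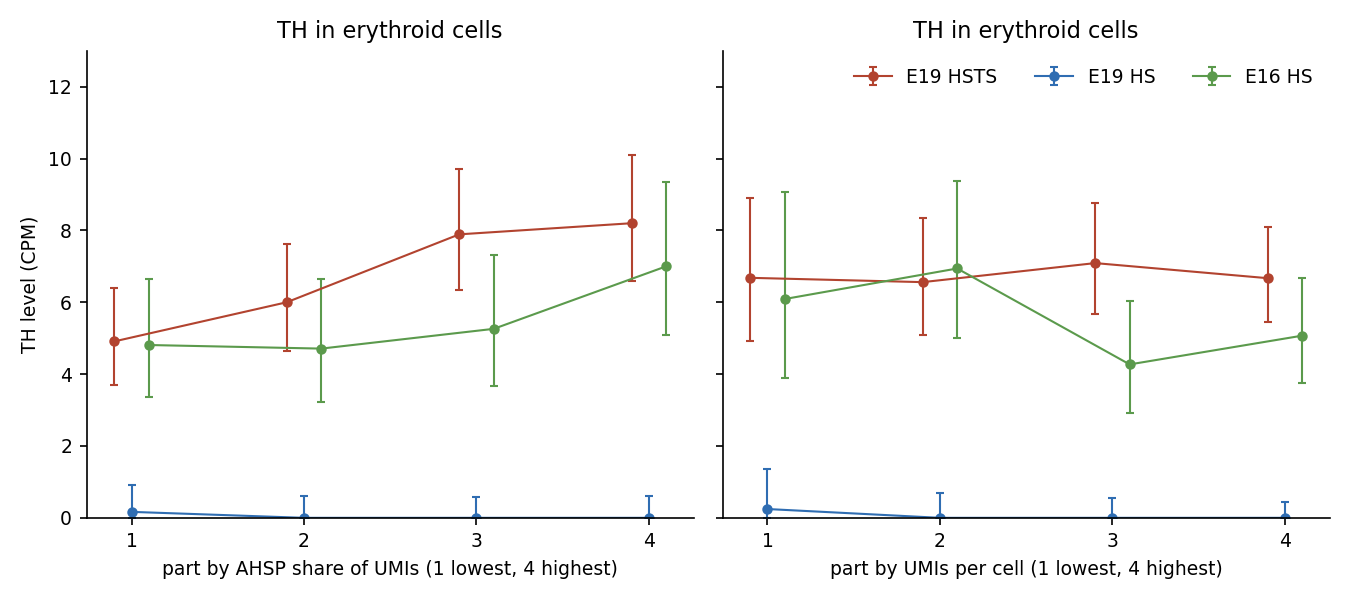
TH level in erythroid cells, in CPM, for 4 equal parts of the cells ranked on their AHSP share of UMIs (left) and on their UMIs per cell (right), with 95% Poisson intervals, by library. In E19 HSTS the level was 4.91 CPM in the lowest AHSP part and 8.20 CPM in the highest, and E19 HS stayed near 0 in every part.

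Of the red cell genes examined, some had overlapping intervals in erythroid cells with and without TH and some did not. These intervals are on summed UMIs and do not include the spread between cells. The cells with TH were also deeper, with a median of 19702 UMIs against 17788 without in E19 HSTS and 15058 against 14505 in E16 HS. In E19 HSTS, ALAS2 was at 555 CPM with TH and 553 without, GATA1 at 81.7 and 77.2, and TOP2A, a gene of dividing cells, at 277 and 276. In E16 HS, ALAS2 was at 470 and 452 CPM and GATA1 at 113 and 114. AHSP was higher with TH in both, at 1363 CPM (1332 to 1394) against 1263 (1252 to 1274) in E19 HSTS and 2267 (2204 to 2332) against 2173 (2155 to 2191) in E16 HS. KLF1, an erythroid factor, was higher with TH in E19 HSTS, at 135 CPM against 121, with intervals apart. TOP2A was lower with TH in E16 HS, at 379 CPM (354 to 406) against 420 (412 to 429). MT1C was lower with TH in both, at 94.6 against 117 CPM in E19 HSTS and at 2.32 (5 UMIs) against 7.30 CPM in E16 HS. MT2 had overlapping intervals in both. It stood at 220 CPM (208 to 233) with TH against 232 (227 to 237) in E19 HSTS, and at 88.6 (76.5 to 102) against 83.6 (80.1 to 87.3) in E16 HS. IGF2, a growth factor gene close to TH in the RefSeq order, had a lower count in cells with TH. It stood at 22.9 CPM (19.0 to 27.3) against 48.6 (46.5 to 50.9) in E19 HSTS and 38.5 (30.7 to 47.7) against 62.4 (59.4 to 65.6) in E16 HS. Erythroid cells held 2026 of 49209, 865 of 50792 and 1656 of 91861 IGF2 UMIs of the 3 libraries. Whether their IGF2 counts came from RNA of other cells or from doublets was not tested. INS, the gene between them, had 7, 2 and 1 UMIs in the erythroid cells of the 3 libraries. The IGF2 counts of all erythroid cells came to 45.5, 35.5 and 60.5 CPM, so these counts were not near 0 in E19 HS as those of TH were. With the source of the counts untested, this does not show IGF2 expression in the red cells. The 8 named genes with the widest gap between cells with 2 or more TH UMIs and other erythroid cells, led by HIKESHI and UQCC2, differed by 15.0 to 39.3 percentage points, over 25 cells in E19 HSTS and 10 in E16 HS.

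The enzymes that act with TH were unevenly present in these cells. PTS stood at 31.2, 39.9 and 46.3 CPM in the erythroid cells, and DDC, which turns L-DOPA into dopamine, at 3.73, 3.33 and 15.2 CPM. GCH1, the first enzyme of cofactor synthesis, stood at 1.39, 1.97 and 3.80 CPM. QDPR stood at 12.1, 2.10 and 3.44 CPM. DBH, which makes noradrenaline, and the vesicular transporter SLC18A1 had 0 UMIs in the erythroid cells of all 3 libraries, and the vesicular transporter SLC18A2 had at most 0.110 CPM. DDC and PTS were thus also present in the E19 HS erythroid cells, where TH was at 1 UMI.

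TH was chosen for its difference between libraries and is left out of the counts that follow. Of the 6 other catecholamine genes with enough UMIs in erythroid cells, QDPR was 2-fold higher in E19 HSTS than in E19 HS (537 UMIs against 51, a ratio of 5.76, 4.32 to 7.83), and none was lower. The share over all 7530 genes was 3.07% higher and 2.38% lower. Between E16 HS and E19 HS, DDC (4.56, 3.59 to 5.86) was 2-fold higher among the 6 and none was lower, where 40.9% of 7590 genes were higher and 1.15% lower. The median ratio of all genes in that comparison was 1.84, so the DDC difference is to be read against it, and the median of the 6 genes was 1.65.

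Over all kept cells 10 catecholamine genes other than TH were compared. QDPR (3612 UMIs against 908, a ratio of 3.54, 3.29 to 3.82) was 2-fold higher in E19 HSTS than in E19 HS and PNMT (22 against 44 UMIs) was lower, where 1.53% of all genes were higher and 2.28% lower. Erythroid cells held 0 of these PNMT UMIs and were a larger part of E19 HSTS, and the PNMT ratio was not recomputed without them. The median ratio of the 10 was 0.956 against 0.963 for all genes. MAOA, which breaks down monoamines, had 660 UMIs in E19 HSTS, against 1025 in E19 HS (0.574, 0.520 to 0.633). Between E16 HS and E19 HS, PNMT (158 against 44 UMIs) was higher and MAOB (26 against 54 UMIs) was lower, where 6.96% of all genes were higher and 6.38% lower. DBH had 1, 5 and 0 UMIs, the noradrenaline transporter SLC6A2 0, 1 and 1, and the dopamine transporter SLC6A3 1, 3 and 2.

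Genes that specify catecholamine cells ranged widely in UMIs, and many of them are also genes of other tissues. PHOX2A, a factor of autonomic neurons, had 1, 3 and 0 UMIs, whereas HAND2 had 910, 858 and 3109, GATA3 264, 262 and 760 and ISL1 153, 128 and 273. None of 8 sympathoadrenal factors was 2-fold apart at E19. Of 6 compared at E16, HAND1, HAND2 and GATA3, which are also genes of mesoderm and ectoderm, were 2-fold higher in E16 HS than in E19 HS and 1 was lower, where 6.96% of all genes were higher and 6.38% lower. Of the 7 midbrain dopamine factors compared at E19, where 2.28% of all genes were lower, LMX1A was lower in E19 HSTS than in E19 HS, with 20 UMIs against 47 (0.379, 0.213 to 0.652), NR4A2 had 37, 31 and 31 UMIs and PITX3 61, 48 and 70. No other one was 2-fold apart at E19, and EN1 was the 1 of 6 that was 2-fold apart at E16, being lower there (36 against 123 UMIs). The ratios of these factors were over all kept cells and were not recomputed without erythroid cells.

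The 8 genes whose level followed TH most closely over the same 41 sums of cells were RHAG, CARNS1, SLC4A1, IKZF1, DUSP26, SLC39A8, HEMGN and STX2, with Pearson correlations from 0.83 to 0.77. RHAG and SLC4A1 encode red cell membrane proteins and HEMGN an erythroid nuclear protein. This too is a description over points that share 3 libraries.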

How the data were processed

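Whole embryos were dissociated with collagenase, treated with red cell lysis buffer and run on the 10x Genomics 3' platform. The authors deposited Cell Ranger (6.1.2) matrices of UMI counts against Ovis_aries_genome_v1.0, 1 per library, not normalized. The cell filter was the study's (genes, 200 to 6000; UMIs, 1000 to 30000; mitochondrial share, up to 10%) and kept 86.5% to 89.6% of cells. Counts were summed over cells and given as CPM with exact Poisson intervals, as shares with Clopper-Pearson intervals, or as ratios with conditional binomial intervals (scipy 1.17.1). A count of 0 was given a limit of 3 counts. Cells were thinned to 3000 UMIs for comparisons across depth, leaving out 1106, 1345 and 1317 shallower cells. Clustering used Seurat 5.3.0 (2000 variable genes, 25 components, resolution 0.25, alternative 1, no batch correction). Scrublet (scanpy 1.11.5) marked 119, 1 and 244 cells as doublets (order as in the report). It did not separate doublets in E19 HS, so the 8% of cells with the highest scores were left out as an alternative and none in the reported values. TMM factors came from edgeR 4.0.16. Interval coverage was tested on simulated Poisson counts, which do not include the spread between cells.

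The members and gene lists were chosen with earlier results of these data known. Named genes were SST, TH, list genes with 20 or more UMIs in a library, those most correlated with a member and those most often found with it. List genes under 20 UMIs named for a count at or near 0 (SSTR1, SSTR3, SSTR5, PCSK2, DBH, SLC18A1, SLC18A2, SLC6A2, SLC6A3, PHOX2A), the podocyte list and the genes of the SST and erythroid cells outside the lists were named after their values were seen. Some genes of the lists are not reported here.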

Additional observations from a re-analysis of the deposited data

Results flagged for a closer look

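Cells left out by the filter on genes, UMIs and mitochondrial share also carried both genes, above the limit that a count of 0 allows. SST was found in 0.468% of the left-out cells of E19 HSTS (7 of 1496), 0.557% of those of E19 HS (8 of 1435) and 0.912% of those of E16 HS (12 of 1316), against 0.530%, 0.715% and 0.927% of kept cells. TH was found in 1.74% of the left-out cells of E19 HSTS (26 of 1496) and 0.304% of those of E16 HS (4 of 1316), against 2.97% and 1.32% of kept cells. Of these, 22 of the 26 and 3 of the 4 had over 30000 UMIs. In E19 HS 1 left-out cell had 1 TH UMI.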

How the results depend on the processing

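Of 90 recomputed values, 60 stayed within the counting interval of the reported value, 30 left it and none reversed. Many of them were shares, which have no direction, so only the ratios could reverse. With at least 2 UMIs required, the SST share of cells was 0.260%, 0.414% and 0.591% and the TH share 0.270%, 0% and 0.0883%, in the report's order of libraries. Thinned to 3000 UMIs, the SST shares were 0.294%, 0.495% and 0.629% and the TH shares 0.587%, 0% and 0.320%. The SST ratio of E16 HS to E19 HS was 0.491 with TMM scaling, 0.434 thinned and 0.631 without the highest SST cell of each library. That of E19 HSTS to E19 HS was 0.547 without erythroid cells and 0.342 without the highest SST cell, an alternative chosen after seeing the data. Without erythroid cells the TH ratios were 7.60 and 4.50 and the TH shares 0.167% in E19 HSTS and 0.127% in E16 HS, as the construction of this setting brings. The share of SST UMIs in neurons at E19 was 79.7% in E19 HSTS and 79.2% in E19 HS with 3 of 4 neuron genes, 94.1% and 84.1% thinned, and 93.9% and 92.0% without the highest doublet scores. In E19 HSTS it was 89.5% with the stricter filter and 90.6% for the neuronal cluster, the latter chosen after seeing the data. The stricter filter gave a TH share of 3.41% in E19 HSTS. The TH ratios had no value where E19 HS fell to 0 UMIs: thinned, TH was at least 18.2-fold higher in E19 HSTS and 9.89-fold in E16 HS, and in erythroid cells at least 8.36-fold and 7.33-fold. With AHSP of at least 10 and ALAS2 of at least 5 UMIs, chosen after seeing the data, it was at least 38.1-fold and 31.1-fold higher. The cause of the other shifts was not tested. No paired analysis was possible because each group had 1 library. The 3 TH UMIs of E19 HS and the few cells with SST limit these values, and counting intervals do not include the spread between embryos.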
